A study of Drosophila melanogaster with 2 samples.

Results

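Binding of Krüppel (Kr) was examined at 4 genes that encode partners of the Hox proteins: homothorax (hth), extradenticle (exd), teashirt (tsh) and tiptop (tio). They were chosen by name, with earlier results of these data known, out of 13968 protein-coding genes of the Drosophila melanogaster annotation. Every ChIP-seq peak summit in a gene's body or within 10 kb to either side was taken as belonging to it. The embryos carried Kr fused at its C terminus to GFP, were whole, of mixed sex and 0 to 10 h old. The labels' description names an antibody to GFP for the precipitation, while their antibody field reads Kr, so it cannot be told apart here whether the peaks are of the tagged protein alone or also of untagged Kr. There was 1 group, with 2 biological replicates of 1 transgenic line that are numbered 2 and 3 in the labels. No control or untagged embryos are analysed here. The authors called 30000 permissive peaks in replicate 2, in replicate 3 and in their pooled reads. Their IDR list, thresholded by the irreproducible discovery rate, holds 2102 peaks, and these were exactly the pooled peaks of highest signal. Hence a rank of 1 to 2102 is the same in both lists.

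Hth and Exd are homeodomain proteins of the TALE class that bind DNA together with Hox proteins and sharpen their choice of sites. In the fly, Hth binds Exd and carries it into the nucleus, so the level of Hth sets where Exd can act. Tsh is a zinc finger protein that works with Hox proteins to give trunk segments their identity, and tio is its paralog, with which it shares much of its activity. Hth and Tsh also act together in the eye and in the proximal part of the limbs. Kr itself is a gap-gene zinc finger protein that acts mainly as a repressor in the early embryo and recognises a word with the core AAGGGTT.

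The windows below carry the findings, each 201 bases centred on a summit and read from the plus strand of the dm6 sequence (RefSeq). They are the highest summit and the second highest summit at hth, the summit at the hth promoter, the summit at hth that holds an alternative Kr word, both IDR summits at tsh, and the highest pooled summit at tio. Capitals mark any match, on either strand, to AAGGGTT, the core word of Kr, to its variant forms GGGTTAA and also AAGGGT, or to CAGGTAG, known for Zelda, GAGAG, known for the GAGA factor, TGACAG, known for Hth, and TGATNNAT, known for Hox proteins with Exd. Where matches overlap or touch, the capitals run on.
hth rank 291: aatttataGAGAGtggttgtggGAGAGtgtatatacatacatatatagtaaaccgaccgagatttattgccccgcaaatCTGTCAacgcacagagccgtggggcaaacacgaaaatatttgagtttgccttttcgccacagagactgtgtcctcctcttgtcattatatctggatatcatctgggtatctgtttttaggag
hth rank 358: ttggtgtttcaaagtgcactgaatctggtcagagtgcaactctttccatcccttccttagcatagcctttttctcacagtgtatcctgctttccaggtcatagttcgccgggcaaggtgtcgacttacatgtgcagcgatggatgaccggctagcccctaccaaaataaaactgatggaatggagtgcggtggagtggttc
hth rank 1640: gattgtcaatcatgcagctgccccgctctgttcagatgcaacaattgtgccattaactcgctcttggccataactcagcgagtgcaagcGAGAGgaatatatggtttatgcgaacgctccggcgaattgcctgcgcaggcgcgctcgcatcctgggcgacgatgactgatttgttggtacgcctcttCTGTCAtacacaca
hth rank 1433: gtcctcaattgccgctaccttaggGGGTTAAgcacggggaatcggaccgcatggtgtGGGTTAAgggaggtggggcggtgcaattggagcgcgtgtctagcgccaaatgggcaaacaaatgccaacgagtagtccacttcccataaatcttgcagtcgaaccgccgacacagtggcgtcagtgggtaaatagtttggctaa
tsh rank 1361: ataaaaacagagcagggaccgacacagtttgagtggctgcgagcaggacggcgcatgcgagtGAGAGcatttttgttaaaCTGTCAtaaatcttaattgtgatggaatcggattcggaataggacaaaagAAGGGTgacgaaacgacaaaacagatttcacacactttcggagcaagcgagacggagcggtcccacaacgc
tsh rank 584: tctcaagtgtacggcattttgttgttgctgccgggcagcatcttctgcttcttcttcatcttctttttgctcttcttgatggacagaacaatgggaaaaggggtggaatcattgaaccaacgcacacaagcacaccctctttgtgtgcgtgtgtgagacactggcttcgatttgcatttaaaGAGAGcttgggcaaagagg
tio rank 2749: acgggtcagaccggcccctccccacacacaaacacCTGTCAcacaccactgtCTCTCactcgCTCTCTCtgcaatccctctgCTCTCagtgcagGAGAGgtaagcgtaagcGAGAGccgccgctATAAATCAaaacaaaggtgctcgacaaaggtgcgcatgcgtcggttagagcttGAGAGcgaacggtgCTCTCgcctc
The windows lie at chr3R:10643240-10643440, chr3R:10626255-10626455, chr3R:10614414-10614614 and chr3R:10514696-10514896 for hth, chr2L:21828237-21828437 and chr2L:21846835-21847035 for tsh, and chr2L:22018972-22019172 for tio.

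The 4 genes differed widely in Kr-GFP peaks. The IDR list placed 13 summits at hth, 2 at tsh and 0 at both tio and exd, so 2 of the 4 genes held an IDR summit. Over all protein-coding genes the share was 27.1%, or 3788 genes. The pooled list had 119 summits at hth, 15 at tsh, 8 at tio and 1 at exd. In the replicates' own lists, hth had 135 summits in replicate 2 and 101 in replicate 3, tsh had 14 and 18, tio had 10 and 12, and exd had 3 and 0. For the highest signal in the gene's window, the order hth, tsh, tio, exd held in replicate 2, and hth, tsh, tio in replicate 3. That signal was 111 in replicate 2 and 109 in replicate 3 at hth, 105 and 60.1 at tsh, 46.0 and 48.8 at tio, and 35.2 with no summit in replicate 3 at exd. Thus hth and tsh were close in replicate 2 and further apart in replicate 3. The signal of tio was lower in both, and that of exd in replicate 2, the only replicate with a summit there. These maxima are over unequal numbers of summits. Signal is the value the authors' peak caller gave each peak, of unstated scale. The replicate lists differ in level, with a median ratio of replicate 2 to replicate 3 of 1.46 over 2079 IDR summits matched in both, so means, SDs and ratios over the replicates include that difference. In whole embryos, strong binding in few cells and weak binding in many cannot be told apart. With 1 group there is no contrast between conditions, and no test was made.

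Gene size bears on these counts, since hth spans 132008 bp (3R, 10507561 to 10639568, minus strand), tsh 8419 bp (2L, 21828593 to 21837011, plus strand), tio 6527 bp (2L, 22019208 to 22025734, plus strand) and exd 4042 bp (X, 15992468 to 15996509, plus strand). Per kb of window, the IDR list had 0.0855 summits at hth and 0.0704 at tsh, against 0.0153 over all chromosome arms. The arms were taken at full length with Y included, so their figure also covers stretches without peaks. The pooled list had 0.783 summits per kb at hth, 0.528 at tsh, 0.302 at tio and 0.0416 at exd, against 0.218 over all arms. Thus tio had more pooled summits per kb than the arms as a whole with no IDR summit, and exd had fewer. Among the 181 other genes within 2-fold of the length of hth, the median number of IDR summits was 1 (quartiles 0 and 2). Just 3 of those 181 (1.66%) had 13 or more, namely CG9380, jing and sbb. Among 2790 other genes within 2-fold of the length of tsh, 321 (11.5%) had 2 or more. An IDR summit was found at 31.0% of the 3437 genes of tio's size and at 27.5% of the 5063 genes of exd's size, so a count of 0 is the common one there.

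**Figure D1:**
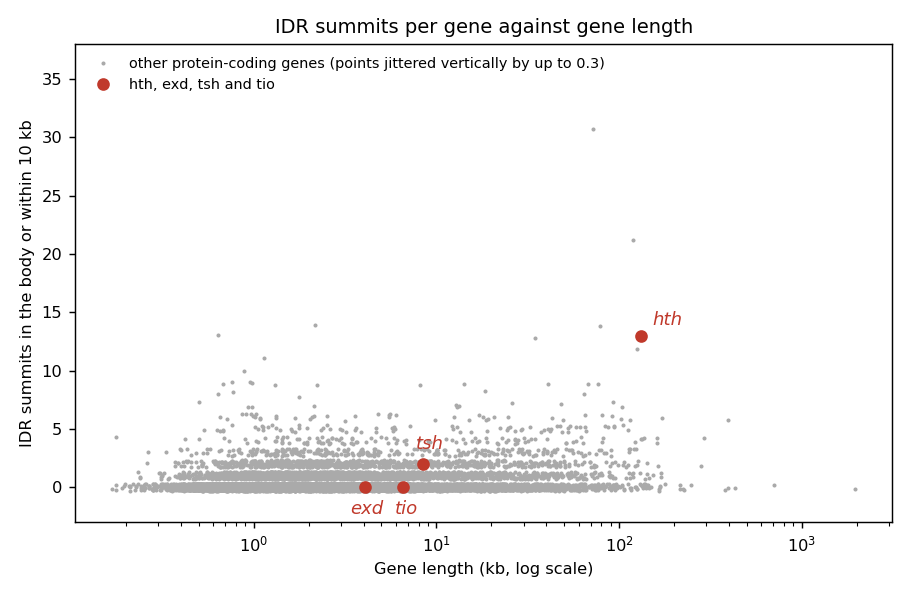
IDR summits per gene, counted over its body and 10 kb to either side (vertical axis), against gene length in kb (horizontal axis, log scale), 1 point per protein-coding gene. The point of hth stands at 13 summits among the long genes, tsh at 2, and tio and exd at 0 with most genes of their length.

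The hth gene has 5 annotated transcripts. Of these, 4 start at 10614276 (the proximal TSS) and 1, FBtr0100454, starts 25.29 kb upstream at 10639568 (the distal TSS). The IDR summits were denser upstream of the proximal TSS than below it, and a gap of 16.78 kb without any spanned the distal TSS. The 10 kb upstream of the distal TSS held 2, the 25.29 kb between both starts held 6 (0.237 per kb), the 106.7 kb of body below the proximal TSS held 5 (0.0469 per kb), and the 10 kb past the 3′ end held 0. Pooled summits were spread more evenly, with 11, 23, 79 and 6 over the same stretches.

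**Figure D2:**
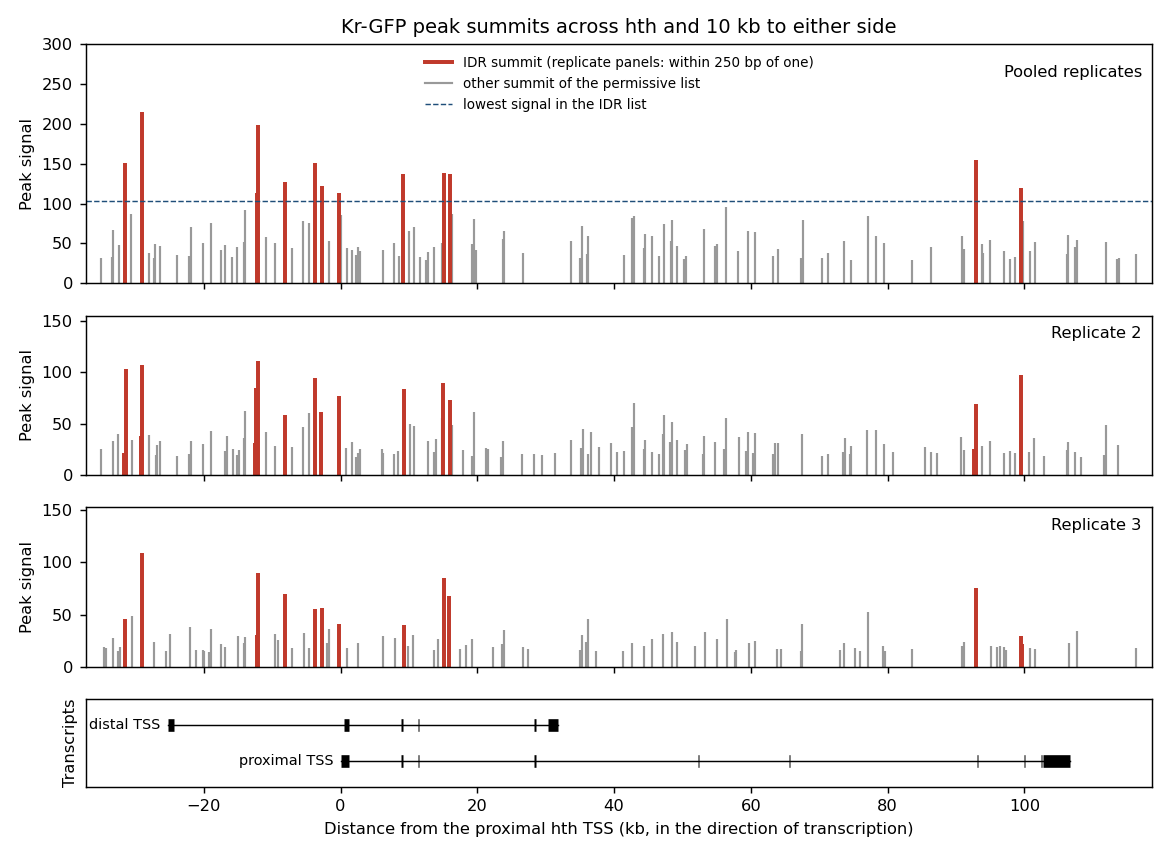
Signal of each peak summit (vertical axis) against its distance in kb from the proximal hth TSS (horizontal axis, negative upstream) in the pooled list and in both replicate lists, with an hth transcript from each start below. The IDR summits (red) crowd around and upstream of the proximal TSS, and a stretch of 76.9 kb without any separates them from 2 near the 3′ end.

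Upstream of the whole gene lay the highest of the 13 hth summits, at 3R, 10643340 (peak 10643120 to 10643559), 3772 bp upstream of the distal TSS and inside the antisense RNA gene asRNA:CR44018. Its signal was 107 in replicate 2 and 109 in replicate 3 (mean 108 ± 1.49, SD, n = 2), and 214 in the IDR list, where it ranked 291. Its rank was 514 in replicate 2 and 191 in replicate 3, so signals that were close in value stood at unlike places in their lists. A further summit in the same RNA gene, at 10645738 (peak 10645518 to 10645957) and 6170 bp upstream of the distal TSS, ranked 759. It had 103 in replicate 2 and 45.3 in replicate 3 (mean 74.0 ± 40.7, SD, n = 2). It ranked 581 in replicate 2 and 2045 in replicate 3, within the 2102 highest peaks of both.

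Intron 1 of FBtr0100454, 24823 bp long, contains the proximal TSS near its 3′ end and held 5 intronic IDR summits besides the 1 at the promoter. The highest, at 10626355 (peak 10626135 to 10626574), was 12079 bp upstream of the proximal TSS and ranked 358. Its signal was 111 in replicate 2 and 89.3 in replicate 3 (mean 100.1 ± 15.3, SD, n = 2). The peak of the summit at 10626556 (rank 1657) overlaps it, and had 84.9 in replicate 2 and 30.2 in replicate 3. In replicate 3 this shoulder had a q-value of 0.120 in the authors' list and ranked 5587. Closer to the proximal TSS, the summit at 10622439 (rank 1213) had 58.2 in replicate 2 and 69.6 in replicate 3, 1 of the 3 IDR summits at these genes that were higher in replicate 3. The summits at 10618035 (rank 762) and 10617035 (rank 1326) were 3759 and 2759 bp upstream. At 10618035 the signal was 94.7 in replicate 2 and 54.9 in replicate 3, and at 10617035 it was 61.6 and 56.0.

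At the proximal promoter, the summit at 10614514 (peak 10614294 to 10614733) lay 238 bp upstream of the start that 4 of the 5 transcripts use. It ranked 1640, in the lower part of the IDR list, with 76.7 in replicate 2 and 40.7 in replicate 3 (mean 58.7 ± 25.5, SD, n = 2). Of the 5 intronic summits upstream of it, 4 had a higher pooled signal than its 114. The distal start had no IDR summit within 500 bp.

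Below the proximal TSS, 3 summits lay within 15957 bp of it and 2 far downstream. The summit at 10605090 (rank 997) was the sole one in coding sequence. It sat 2 bp from the edge of an exon of 281 bp (10605088 to 10605368, exon 2 of 14 in FBtr0082255), and its replicate 2 summit, 30 bp away, fell in the adjoining intron. Signals there were 84.1 in replicate 2 and 39.9 in replicate 3. A neighbouring pair in intron 3 of the same transcript (9190 bp), 872 bp apart, was within 1.2-fold between replicates, with 89.8 in replicate 2 and 85.1 in replicate 3 at 10599191 (rank 957), and 73.1 and 67.8 at 10598319 (rank 978).

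From there, 76.92 kb of the hth gene held no IDR summit. The pooled list had 47 summits in that gap, the best at rank 2548 with a signal of 95.2. Past it, the summit at 10521398 in intron 10 of 13 (rank 700) had 69.0 in replicate 2 and 75.8 in replicate 3 (mean 72.4 ± 4.76, SD, n = 2). The last, at 10514796 in intron 11 (rank 1433), had 97.2 in replicate 2 and 29.0 in replicate 3 (mean 63.1 ± 48.2, SD, n = 2). It ranked 692 in replicate 2 and 6181 in replicate 3, where its q-value was 0.147. These far summits are 92878 and 99480 bp downstream of the proximal TSS, and hth is still the gene that holds them, although the nearest TSS is that of Cyp12e1, a cytochrome P450 gene.

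At tsh, both IDR summits lay outside the gene body. The promoter summit at 2L, 21828337 (peak 21828117 to 21828556) was 256 bp upstream of the single annotated TSS, and ranked 1361. It had 87.2 in replicate 2 and 17.6 in replicate 3 (mean 52.4 ± 49.2, SD, n = 2), the widest ratio between replicates among the 15. That value of replicate 3 belongs to the nearest summit, 102 bp away, with a q-value of 0.597. The highest summit of replicate 3 within 250 bp, 162 bp away, had 42.2 with a q-value of 0.0128, a ratio of 2.07 between replicates.

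The stronger tsh summit was downstream, at 21846935 (peak 21846715 to 21847154), 9924 bp past the end of the gene and just inside the window. It ranked 584, with 105 in replicate 2 and 60.1 in replicate 3 (mean 82.6 ± 31.9, SD, n = 2). With windows of 5 kb in place of 10 kb it drops out, and tsh keeps 1 summit. Below the lowest IDR signal of 103, summits at 21843859 and 21846275 in the same downstream flank had pooled signals of 99.5 and 95.6 (ranks 2288 and 2513). In the body of tsh, the best of 4 pooled summits lay in an intron at 21830752 and ranked 5126, with 41.6 in replicate 2 and 26.7 in replicate 3. Pooled summits were about as dense in the body of tsh as in its flanks, with 4 in the body (0.475 per kb) and 11 in the flanks (0.55 per kb).

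At tio, none of 8 pooled summits reached the IDR list. The highest, at 2L, 22019072 (peak 22018852 to 22019291), was 136 bp upstream of the first tio TSS and ranked 2749. It had 46.0 in replicate 2 and 39.7 in replicate 3 (mean 42.9 ± 4.47, SD, n = 2), with a pooled signal of 92.0. A second, in the 3′ UTR at 22024617, ranked 3290, with 38.6 in replicate 2 and 48.8 in replicate 3 (mean 43.7 ± 7.21, SD, n = 2). In replicate 3 the 3′ UTR summit ranked 1675, within that replicate's own 2102 highest peaks, with a q-value of 0.00388. In replicate 2 it ranked 7353, with a q-value of 0.0626. The nearest IDR summit was at 22037111, 11.4 kb past the end of tio and 749 bp from the TSS of Grl40a, with 80.9 in replicate 2 and 47.4 in replicate 3.

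Around exd few summits were listed, and without coverage or depth this does not show an absence of signal. Of 5063 other genes within 2-fold of its length, 337 had no pooled summit, and the median was 5 pooled summits. Its 1 pooled summit, at X, 16006363, had a signal of 39.8 and ranked 16935, with a q-value of 0.493, and it lay at the promoter of another gene, CG12698. Replicate 2 listed 25.2 there and replicate 3 listed no summit. Besides that, replicate 2 had summits at 15997030 and 15997242, with 35.2 and 25.7, and 15997030 is 14 bp from the TSS of the neighbour CG8939. None of these falls in the body of exd. The nearest IDR summit was 109 kb away, at 16105103, near the TSS of CG42354.

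**Figure D3:**
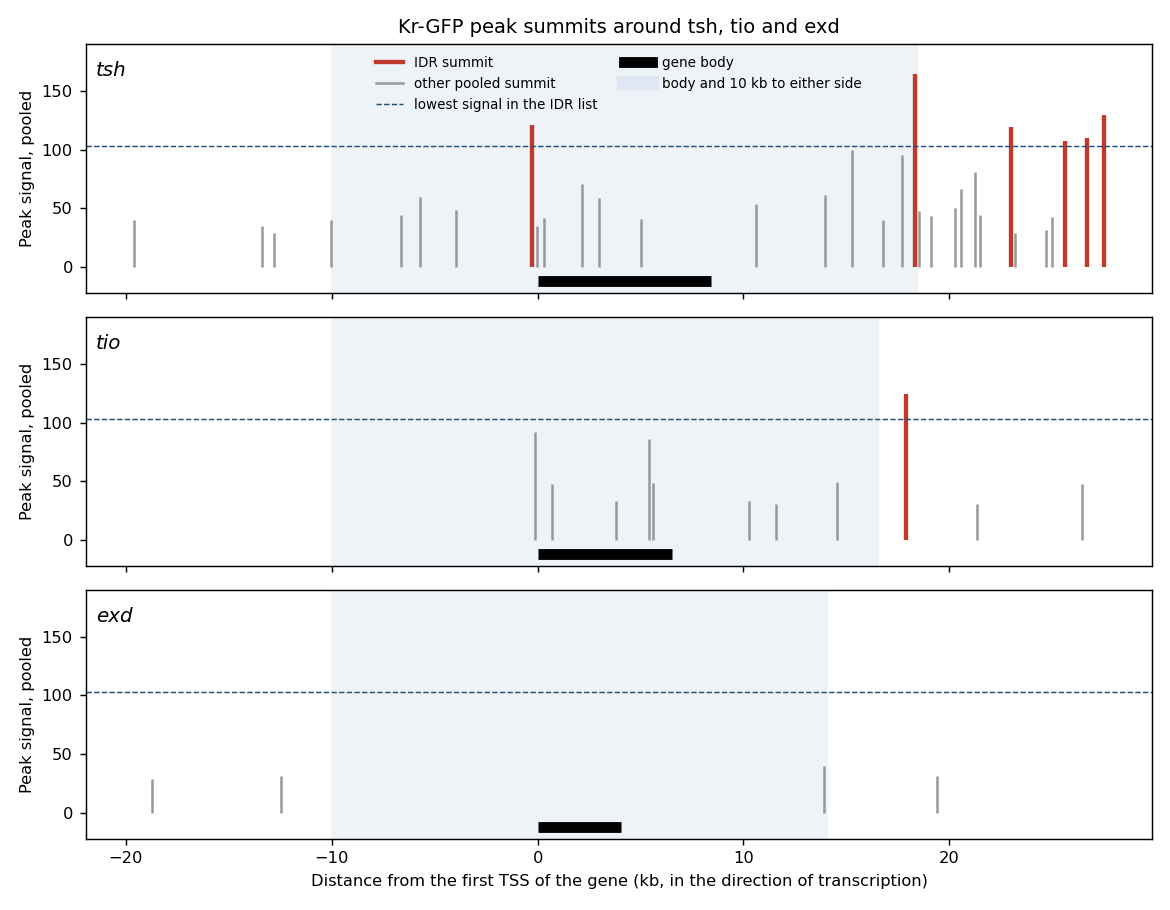
Signal of pooled peak summits (vertical axis) against distance in kb from the first TSS of tsh, tio and exd (horizontal axis), with the gene body in black and the 10 kb windows shaded. The IDR summits (red) at tsh sit at the promoter and beyond the 3′ end, the highest summit of tio stays under the lowest IDR signal of 103, and exd has 1 low summit in its window.

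Over the 15 IDR summits together, the pooled signal ran from 113 to 214 with a median of 137, against a median of 133 over all 2102 IDR peaks, whose highest was 1998. So hth had many summits of middling height, and 9 of the 15 were above the median of the list. For each of the 15, both replicates listed a summit 250 bp away or less, as for 98.9% of all IDR summits. By the signal of that nearest summit, 8 of the 15 ranked among the 2102 highest peaks of both replicates, against 53.9% of all IDR summits. Signal was higher in replicate 2 at 12 of the 15 and in replicate 3 at 3, and it was higher in replicate 2 at 81.2% of matched IDR summits. The ratio of replicate 2 to replicate 3 had a median of 1.72 (0.836 to 4.96), against 1.46 over the matched IDR summits. At 6 of the 15, all at hth, the replicates were within 1.2-fold, against 22% of matched IDR summits. A ratio near 1 is below the median of the lists, so it is no measure of reproducibility. By nearest summit, the q-value exceeded 0.05 in replicate 3 at 3 summits (hth ranks 1433 and 1657, and tsh rank 1361) and in replicate 2 at 0. Over matched IDR summits the shares were 10.7% in replicate 3 and 1.44% in replicate 2. At tsh rank 1361, a higher summit of replicate 3 within 250 bp had a q-value of 0.0128. These counts over 15 summits were not tested against the list.

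**Figure D4:**
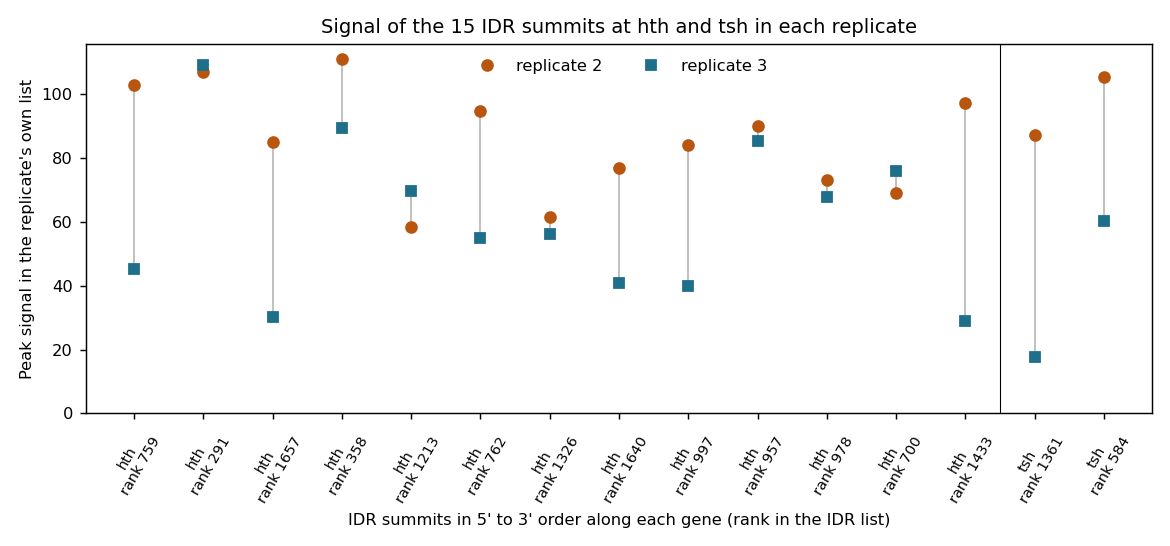
Signal in replicate 2 (circles) and replicate 3 (squares) for each of the 15 IDR summits, in 5′ to 3′ order along hth and then tsh, with a grey line joining both values. The replicates lie close at hth ranks 291, 957, 978, 1326 and 700, and far apart at hth ranks 759, 1657 and 1433 and at tsh rank 1361.

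Each replicate's own 2102 highest peaks gave nearly the same number at hth, 12 in replicate 2 and 13 in replicate 3. Of these, 11 and 9 lay within 250 bp of an IDR summit. Both replicates went into the IDR list, so this overlap is no independent support, and the same share over all genes was not counted. For tsh the numbers were 3 in replicate 2 and 1 in replicate 3, and the summit 9924 bp past the gene was in both. For tio they were 0 and 1, and for exd 0 and 0.

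The weaker peaks of the pooled list were also examined. At hth, 32 of 119 pooled summits (26.9%) had a q-value under 0.05, at tsh 5 of 15, at tio 2 of 8 and at exd 0 of 1, against 17.8% of all pooled summits. A summit within 250 bp was present in both replicates for 77 of the 119 at hth (64.7%), 11 of 15 at tsh, 5 of 8 at tio and 0 of 1 at exd, against 52.5% of all pooled summits. At hth 96 of the 119 lay in introns, 11 in the upstream flank and 6 past the 3′ end. At tsh 6 lay in the downstream flank, 3 in the upstream flank and 3 in promoters.

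By place, 9 of the 15 IDR summits (60%) were intronic, 2 (13.3%) were in promoters, meaning within 500 bp of the TSS of a protein-coding gene, 1 was in coding sequence and 3 were in flanks. Of all IDR summits, 41.2% were in introns, 28.9% in promoters, 0.428% (9 summits) in coding exons and 28.1% in intergenic sequence, the class that corresponds to flanks. Summits at hth dominate the first set, and they share 1 long gene.

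Sequence words were sought within 100 bp of each summit, on both strands. The Kr word AAGGGTT was in 0 of the 15 windows (0%, Wilson 95% interval 0 to 20.4%), against 12.5% of all IDR windows and 1.62% of promoter windows of the same length. Counts this small leave the share at all IDR summits inside the interval. Among the 128 pooled summits of these genes outside the IDR list, 7 (5.47%) held the word, against 4.39% of all such summits. The related word GGGTTAA occurred in 1 window, at hth rank 1433, with matches centred 73 and 40 bp to the left of the summit, against 6.80% of all IDR windows and 1.35% of promoters. The shorter AAGGGT, which is part of AAGGGTT, occurred in 1 window, at tsh rank 1361, against 19.4% of all IDR windows and 4.32% of promoters. The highest summit at hth held neither.

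The words of other factors were also counted. GAGAG, a word of the GAGA factor, was in 7 of the 15 windows (46.7%, 24.8 to 69.9%), against 33.5% of all IDR windows and 25% of promoters. TGACAG, to which Hth binds, was in 3 (20%, 7.05 to 45.2%), against 8.75% of all IDR windows and 8.56% of promoters. Those 3 were hth rank 291, the hth promoter at rank 1640 and the tsh promoter at rank 1361. TGATNNAT, bound by Hox proteins with Exd, was in 3 as well (20%), against 11.5% of all IDR windows and 10.1% of promoters, at hth ranks 759, 762 and 1213. CAGGTAG, the word of the early activator Zelda, was in 0 of 15 (0 to 20.4%), against 3.28% of all IDR windows and 1.08% of promoters. The tio promoter window held 8 GAGAG matches in 201 bases, as did the window of a weak pooled summit at the tsh promoter (rank 22026). At least 8 were found in 0.86% of all pooled windows, 1.95% of IDR windows and 0.508% of promoters. This threshold was taken from the tio window itself, so these shares are description only. The GC content of the 15 windows had a median of 46.8% (30.3 to 54.7%), against 43.8% over all IDR windows.

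**Figure D5:**
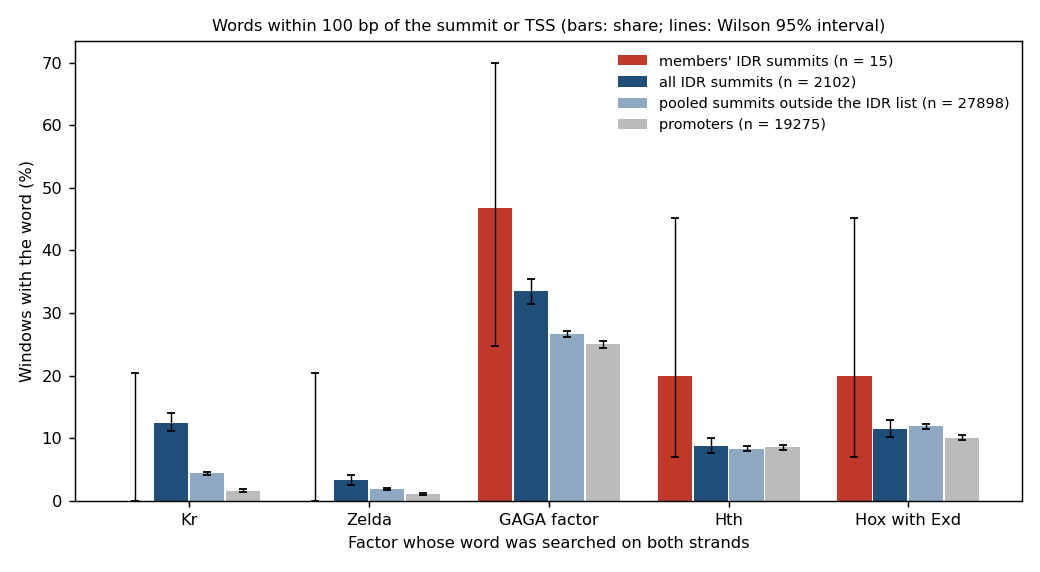
Share of windows (vertical axis, %) with each factor's word within 100 bp of the summit or TSS, for the 15 IDR summits at hth and tsh, all IDR summits, pooled summits outside the IDR list and promoters, with Wilson 95% intervals. The bars of the 15 summits are at 0 for the Kr and Zelda words, and their intervals are wide for every word.

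Other genes of the same developmental network were counted in the same windows. The Hox genes, which set segment identity, had an IDR summit at 7 of 8, with a median of 2 and at most 6 summits, against a median of 1 over the 4 genes described here and 0 over all protein-coding genes. The share over all protein-coding genes was 27.1%, and over 1119 other genes within 2-fold of the Hox genes' median length of 30.6 kb it was 41.4%. The best ranked were at Dfd, which patterns the head (2 summits, best rank 89, 222 in replicate 2 and 89.0 in replicate 3), lab (2, rank 301, 129 and 81.9) and Antp (6, rank 340, 108 and 86.5). Antp is nearly as long as hth, with 102976 bp, and had fewer than its 13 summits. The 1 summit at Scr (rank 1947, 51.3 in replicate 2 and 48.0 in replicate 3) was intergenic and lay nearest to the TSS of Dfd. Scr thus counts among the 7 through a summit nearer to its neighbour. Abd-B had 0. The other TALE homeobox genes had an IDR summit at 2 of 5, against 35.6% of 2100 other genes within 2-fold of their median length of 12.2 kb. These were caup (2, rank 350, 144 in replicate 2 and 60.8 in replicate 3) and mirr (4, rank 373, 141 and 52.7), which belong to the Iroquois complex, while achi, vis and ara had 0.

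Regulators of eye, limb and wing that are used with hth or tsh had an IDR summit at 8 of 12, with a median of 1, against 38.6% of 1537 other genes within 2-fold of their median length of 19.5 kb. The best ranked were disco, a zinc finger gene of the limbs (2 summits, best rank 254, 143 in replicate 2 and 87.7 in replicate 3), sd, the DNA-binding partner of Vestigial (2, rank 657, 95.6 and 65.3), and nub, a POU-domain gene of the wing (3, rank 739, 91.4 and 65.6). The best summit at nub lay nearest to the TSS of Ref2, and the 1 summit at so to that of CG11145. The 4 genes disco-r, ey, toy and vg had 0.

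The profile of each gene, made of the number of IDR summits and the highest signal in each replicate on a log2 scale, was set beside those of all genes that share no window with it. Nearest to hth among 11996 genes were tara (13 summits, 142 in replicate 2 and 81.2 in replicate 3, distance 0.555), tna (9, 136 and 83.7, distance 0.682) and otk (8, 136 and 118, distance 0.712). All of them had a higher best signal in replicate 2 than the 111 at hth. Nearest to tsh were Mtp, RPA2 and sky, which share a summit window and so a single profile (2 summits, 108 in replicate 2 and 60.3 in replicate 3, distance 0.0438). Nearest to tio were Lrt, galla-1 and exu, again with 1 shared profile (0 summits, 46.7 and 48.6, distance 0.0232). No profile could be made for exd, which had no summit in replicate 3.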

How the data were processed

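ChIP-seq peaks of Kr-GFP embryos were analysed from the authors' peak lists on dm6, of which 1 per replicate, 1 on the pooled reads and 1 thresholded by IDR were deposited. Peaks of the replicates were thus called separately. Per the deposited text lists of files, the format is narrowPeak. The signal of each peak is the authors' own value, of unstated scale, and the −log10 of a q-value deposited beside it was turned into q. The q-value reached 0.00325 in the IDR list and 0.763 in the pooled one. Neither the aligner, nor the peak caller, nor the IDR threshold is given in the sources used here. The files hold peaks and no counts, so depth is unknown, and Wilson intervals cover counting error only. The same lists on dm3 were not used here.

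Summits (1-based) were placed on Ensembl release 115 (BDGP6, dm6 coordinates), and sequence came from the RefSeq genome of the same build. Places were called in the order promoter, 5′ UTR, coding exon, 3′ UTR, intron, flank. A replicate's value at a summit is that of its nearest summit within 250 bp. Over replicates, SDs take signal as linear and include the difference in scale between lists. Python 3.11.15, pandas 2.3.3, numpy 2.4.6, scipy 1.17.1 and matplotlib 3.10.9 were used, and the counting, matching and word functions were tested on simulated data. No test between groups was possible with 1 group. Members and gene lists were chosen with earlier results of these data known. Other genes are named by rule: those holding or nearest to a summit, the 3 of closest profile and the 3 best ranked of each list. CG9380, jing, sbb, Scr, so, Ref2 and CG11145, and listed genes with 0 IDR summits, are named beyond it, chosen after their values were seen. The alternatives were other windows, thresholds, match distances, promoter widths, words and single replicates.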

Additional observations from a re-analysis of the deposited data

How the results depend on the processing

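The number of IDR summits at the 4 genes was 15 and stayed within 1.5-fold of that with windows of 2, 5 or 20 kb (12, 13 and 21), with overlapping peaks merged (14), and in the 2102 highest peaks of 1 replicate (15 without replicate 2 and 15 without replicate 3). It was 9 in the 1051 highest peaks of the IDR list, where fewer peaks enter. The genes with a summit counted under each setting numbered 2, except 3 with windows of 20 kb and 3 without replicate 2. Without replicate 3 they numbered 2. At 20 kb tio gained the IDR summit near the TSS of Grl40a. Without replicate 2 it gained the 3′ UTR summit of replicate 3, which is not in the IDR list. The share of all protein-coding genes moved alongside, to 12%, 18% and 41.6% with windows of 2, 5 and 20 kb, to 16% in those 1051 peaks, and to 29% without replicate 2 and 25.6% without replicate 3. At hth the count was 8 in those 1051 peaks and 11 to 14 under the other settings, and at exd it was 0 under all of them. At tsh it was 1 with windows of 2 or 5 kb, in the 1051 highest peaks and without replicate 2, 3 without replicate 3, and 6 with windows of 20 kb. Summits matched in both replicates numbered 9 of 15 when only each replicate's 2102 highest peaks counted. That is 1 more than the 8 by nearest summit, because hth rank 1657 also lies within 250 bp of the summits of rank 358. Promoter summits fell to 1 with a promoter of 250 bp, which leaves out the tsh summit at 256 bp. The Kr word was in 1 window as GGGTTAA and in 1 as AAGGGT. At windows of 50 and 200 bp AAGGGTT stayed at 0. The highest summit at hth, with 214 in the pooled reads, had 109 without replicate 2 and 107 without replicate 3. Those values come from other lists than the pooled one. In replicate 2 alone the highest signal at hth was 111, at the summit of rank 358. Taking the highest summit within 250 bp at the tsh promoter was chosen after seeing the data. No paired analysis was possible because there is 1 group. Unknown depth limits how far an absent summit at exd or tio can be read.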

Other observations

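Between tsh and tio on 2L, 182.2 kb with 7 other protein-coding genes held 7 IDR summits (0.0384 per kb) and 79 pooled ones (0.434 per kb), against 0.0153 IDR and 0.218 pooled summits per kb over all chromosome arms. This interval was chosen after its values were seen. Of the 7 summits, 5 lay within 20 kb of the end of tsh. The first, at 21846935, is the downstream summit of tsh described above, and it is the highest of the 5 in the pooled list. It is followed by summits at 21851570 (rank 1432, 62.3 in replicate 2 and 49.4 in replicate 3), 21854213 (rank 1867, 75.3 and 22.2), 21855297 (rank 1786, 59.0 and 44.5) and 21856108 (rank 1157, 84.8 and 45.2). The last pair lies inside the RNA gene lncRNA:CR44917. Further on, the summit at 21877202 (rank 643, nearest TSS that of CG11629) had 108 in replicate 2 and 49.1 in replicate 3, and the summit at 21970841 (rank 1633, nearest TSS that of CG2528) had 69.8 and 36.7. All 7 were higher in replicate 2, as were 81.2% of matched IDR summits, and 0 of the 7 held the word AAGGGTT within 100 bp, against 12.5% of all IDR summits, so neither count sets the interval apart. The run past the end of tsh is why its count depends on the window, with 1 IDR summit at 5 kb, 2 at 10 kb and 6 at 20 kb.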
